A study of Homo sapiens with 6 samples.

Results

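The Notch receptors NOTCH1, NOTCH2 and NOTCH3, the ligands JAG1, JAG2 and DLL1, and the transcription factor genes HES1, HES2 and HEY1 were followed in H226, an established human lung squamous carcinoma line. These 9 genes, of 18404 genes with a value, were named by their place in the pathway, and each was read from the Affymetrix probe set that names it alone. Total RNA was hybridised to 6 HuGene 1.0 ST arrays, 2 in each of 3 groups, and all cells carried an shRNA against p63 that doxycycline switches on. Control cells grew without treatment and with the shRNA off. Nutlin-3 cells, with the shRNA also off, received 10 µM Nutlin-3, an inhibitor of MDM2 that activates p53, for 12 h. The shRNA was switched on in the shp63 ON group by 48 h of doxycycline at 1 µg/mL. No other group had doxycycline, Nutlin-3 was given for a shorter time, and no array held another shRNA, so the knockdown, the drug and the time cannot be told apart. The shRNA's own target was not analysed here.

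Notch is a receptor that works by being cut. A Jagged or Delta ligand on a neighbouring cell pulls on the receptor, a sheddase and then gamma-secretase cleave it, and the freed intracellular domain enters the nucleus, where it joins the DNA-binding protein RBPJ and a Mastermind coactivator to switch on HES and HEY genes. HES and HEY proteins are repressors of the basic helix-loop-helix class. In stratified epithelia Notch signalling accompanies the exit of cells from the basal layer, where p63 is high, and cross-talk between p63, p53 and Notch genes has been described in keratinocytes.

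Values are log2 intensities, so a difference of 1 is a doubling. A gene is said to have risen or fallen where limma's moderated test gave a Benjamini-Hochberg adjusted p under 0.05 over all 18404 genes. Precision is limited by the 2 arrays per group, for which the smallest two-sided p of an exact permutation test is 0.333. The labels do not say that replicates were separate cultures, so the p-values may measure technical spread. Replicate arrays correlated across genes at r = 0.997 to 0.998, against 0.975 to 0.989 between groups. Squamous and basal epithelial markers were high, with 10 of 12 above the median of all genes, 7.30, on average over the arrays. KRT15 and PKP1, the others, lay below it. Markers of other cell types were mostly below that median (2 of 10 endothelial, 1 of 7 leukocyte, 2 of 8 stromal fibroblast and 2 of 5 mesothelial markers were above it). The pan-leukocyte gene PTPRC, lowest of its list, stood at 4.37 (control), 4.33 (Nutlin-3) and 4.25 (shp63 ON), and the endothelial gene PECAM1 at 5.12, 4.90 and 5.07. TYROBP and CDH5, the highest of the leukocyte and endothelial lists, lay above the median of all genes. TYROBP stood at 7.81, 7.75 and 8.35 and CDH5 at 8.55, 8.08 and 9.12. The mesothelial markers BNC1 and MSLN were brighter still, BNC1 at 9.83, 10.51 and 9.47 and MSLN at 9.80, 9.83 and 10.07. FAP, the highest stromal fibroblast marker, stood at 8.82, 8.90 and 8.53. In shp63 ON, 3 of 7 leukocyte and 5 of 10 endothelial markers rose (19.7% of all genes) and 0 fell (16.5%). Beside the same shares, 2 of 5 mesothelial markers rose and 1 fell, and 2 of 8 stromal fibroblast markers rose and 1 fell. In bulk RNA, fewer cells of a type and less RNA per cell cannot be told apart.

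With Nutlin-3, NOTCH1, JAG1 and NOTCH2 rose and the other 6 genes did not pass. With the p63 shRNA on, JAG1, DLL1, JAG2, HES1 and NOTCH1 fell and HES2 rose. NOTCH1 and JAG1 thus stood highest with Nutlin-3 and lowest with the shRNA on, and each was more than 2-fold lower in shp63 ON than with Nutlin-3. NOTCH3 and HEY1 passed in none of the 3 comparisons by limma. Their unadjusted p-values were 0.0810 and 0.0823 with Nutlin-3, 0.170 and 0.436 in shp63 ON, and 0.633 and 0.274 between the treatments.

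Read against all genes, 3 of 9 rose with Nutlin-3, where 9.64% of all genes rose, and 0 fell, where 8.89% did (18.5% in either direction). At an unadjusted limma p under 0.05, 3 were higher and 1, DLL1, lower, and the unadjusted analysis of variance had 3 higher and 2, DLL1 and HES2, lower. In shp63 ON, 1 of 9 rose against 19.7% of all genes and 5 fell against 16.5% (36.2% in either direction). In shp63 ON against Nutlin-3, 1 of 9 was higher against 27.5% of all genes and 6 were lower against 24.0% (51.5% in either direction). The median log2 difference of the 9 genes was 0.13 with Nutlin-3, −0.34 in shp63 ON and −0.36 between the treatments, beside 0.00, 0.04 and 0.03 over all genes. The comparisons with control share the control arrays.

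**Figure D1:**
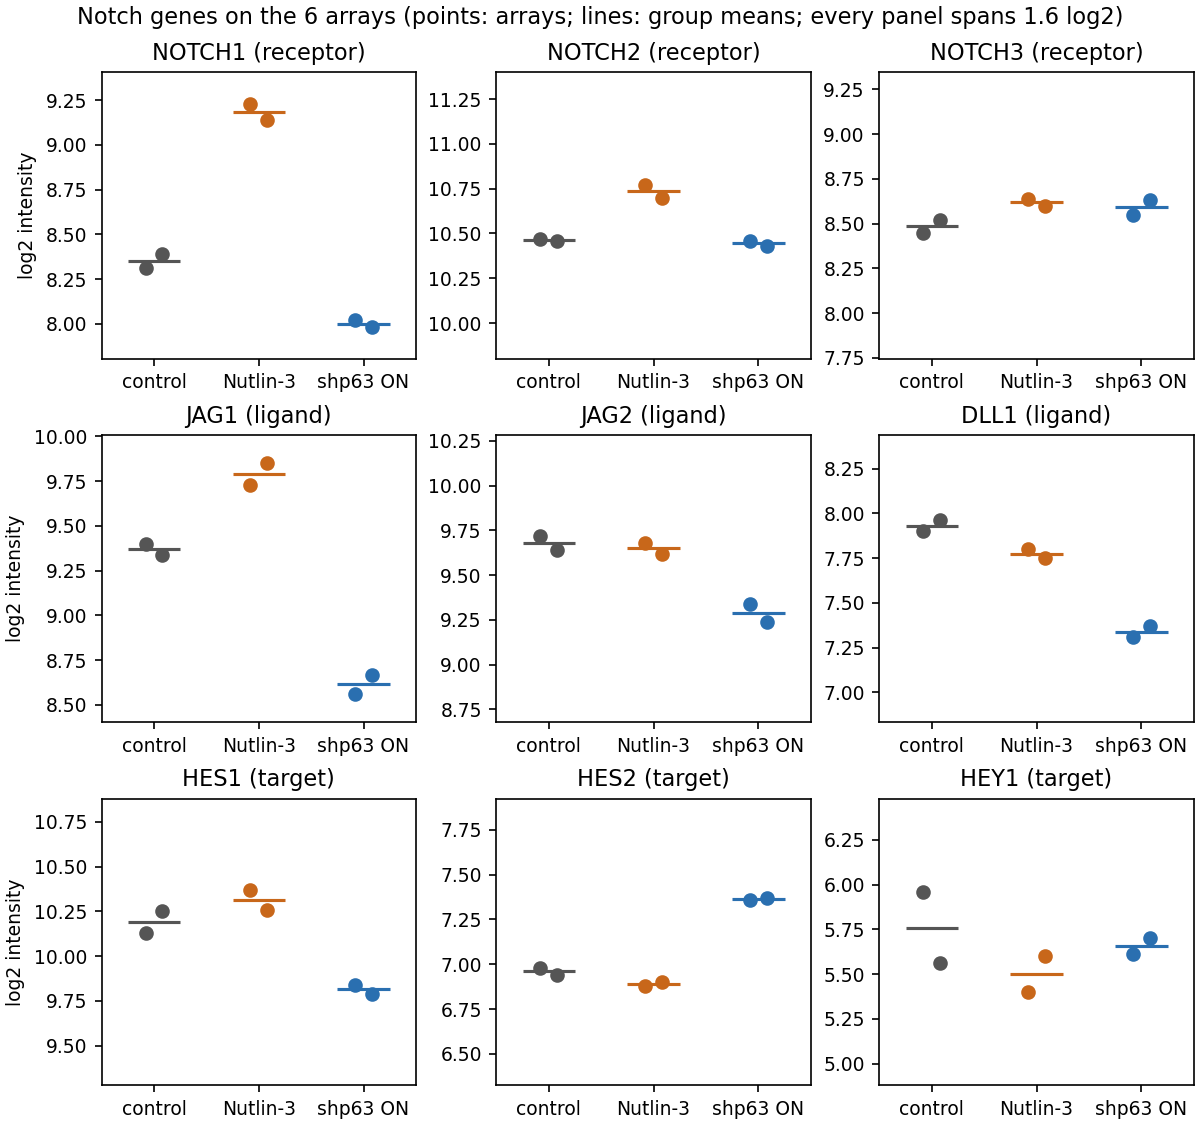
Log2 intensity (y axis) of the 9 Notch genes on every array, by group (x axis). Points are arrays and lines are group means, and every panel spans the same range. NOTCH1 and JAG1 are highest with Nutlin-3 and lowest in shp63 ON, JAG2, DLL1 and HES1 are lowest in shp63 ON, and HES2 is highest there.

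Among the receptors, NOTCH1 changed most. It is the receptor best known for its part in squamous differentiation and is often mutated in squamous cancers. The control arrays read 8.31 and 8.39, the Nutlin-3 arrays 9.23 and 9.14, and the shp63 ON arrays 8.02 and 7.98. The 3 groups did not overlap, with Nutlin-3 on top and shp63 ON at the bottom. The rise with Nutlin-3 was 1.79-fold (log2 difference 0.84, SE 0.07, limma adjusted p = 0.00018). The fall in shp63 ON was smaller, 1.27-fold (−0.34, SE 0.07, adjusted p = 0.0073), and without control replicate 2 it missed the threshold (limma adjusted p = 0.0569, range over the other alternatives from 0.0021). Between the treatments NOTCH1 was 2.27-fold lower in shp63 ON (−1.18, SE 0.07, adjusted p = 2.1e-05).

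NOTCH2, the broadly expressed receptor, read 10.47 and 10.46 in control, 10.77 and 10.70 with Nutlin-3, and 10.46 and 10.43 in shp63 ON. Only the Nutlin-3 arrays stood apart by more than 0.2. The rise with Nutlin-3 was 1.21-fold (log2 difference 0.27, SE 0.06, limma adjusted p = 0.0236). The call was lost in several fits with an array left out: limma's adjusted p was 0.118 without control replicate 1, 0.108 without control replicate 2 and 0.0952 without nutlin replicate 1, within a range of 0.0017 to 0.118 over the alternatives. In shp63 ON the difference from control was −0.02 (95% interval −0.16 to 0.13), with the sign turned after quantile (0.04) and cyclic loess (0.07) normalization. Part of NOTCH2 is copied in the NOTCH2NL genes, and a further probe set that names NOTCH2 with NOTCH2NLA and NOTCH2NLB read 10.37 and 10.35 in control, 10.54 and 10.63 with Nutlin-3, and 10.29 and 10.38 in shp63 ON. Its difference with Nutlin-3 was close in size (0.22, SE 0.07) and did not pass (limma adjusted p = 0.0607), and with near-identical copies in the genome the level of NOTCH2 is uncertain.

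NOTCH3, a receptor best known from vascular smooth muscle, had the smallest span of group means among these receptors. It was 0.13, against 0.29 for NOTCH2 and 1.18 for NOTCH1, though in shp63 ON NOTCH2 lay closer to control. The NOTCH3 arrays read 8.45 and 8.52 in control, 8.64 and 8.60 with Nutlin-3, and 8.55 and 8.63 in shp63 ON. The differences from control were 0.13 (95% interval −0.02 to 0.29) with Nutlin-3 and 0.10 (−0.05 to 0.25) in shp63 ON. Between the treatments it was −0.03 (−0.19 to 0.12), and the sign turned after quantile (0.08) and cyclic loess (0.04) normalization.

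JAG1, JAG2 and DLL1 all fell with the shRNA on. JAG1, a Jagged ligand, read 9.40 and 9.34 in control, 9.73 and 9.85 with Nutlin-3, and 8.56 and 8.67 in shp63 ON. As for NOTCH1, the 3 groups did not overlap. JAG1 fell 1.69-fold in shp63 ON (log2 difference −0.76, SE 0.07, limma adjusted p = 0.00038). It rose 1.34-fold with Nutlin-3 (0.42, SE 0.07, adjusted p = 0.0081), a call lost without control replicate 2 (limma adjusted p = 0.0614, between 0.00078 and 0.0835 over the alternatives). Between the treatments JAG1 was 2.26-fold lower in shp63 ON (−1.18, SE 0.07, adjusted p = 3.0e-05).

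JAG2, the other Jagged ligand, read 9.72 and 9.64 in control, 9.68 and 9.62 with Nutlin-3, and 9.34 and 9.24 in shp63 ON. Control and Nutlin-3 arrays overlapped, and the shp63 ON arrays were lower than all of them. It fell 1.32-fold in shp63 ON (−0.40, SE 0.07, limma adjusted p = 0.0046), and against Nutlin-3 it was 1.29-fold lower (−0.36, SE 0.07, adjusted p = 0.0037). With Nutlin-3 the difference from control was −0.03 (95% interval −0.19 to 0.13). Whether JAG1 and JAG2 differ in their response was not tested.

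DLL1, a Delta ligand, read 7.90 and 7.96 in control, 7.80 and 7.75 with Nutlin-3, and 7.31 and 7.37 in shp63 ON. It fell 1.51-fold in shp63 ON (−0.59, SE 0.06, limma adjusted p = 0.00058) and was 1.35-fold lower there than with Nutlin-3 (−0.43, SE 0.06, adjusted p = 0.0012). The Nutlin-3 arrays lay just below control without overlap, and that difference did not pass (−0.16, SE 0.06, adjusted p = 0.131). The fall with the shRNA on passed in every alternative tried for JAG1, JAG2 and DLL1, with log2 differences of −0.82 to −0.67, −0.46 to −0.30 and −0.65 to −0.56.

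**Figure D2:**
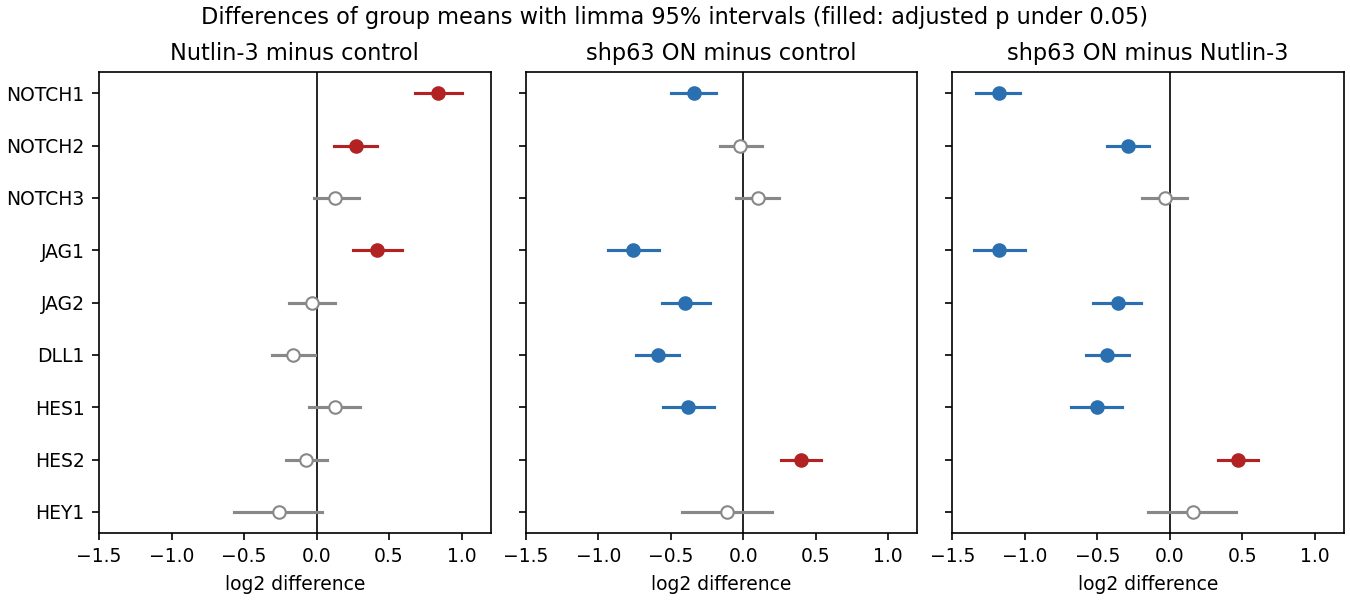
Log2 differences of group means (x axis) for the 9 genes (y axis) in the 3 comparisons, with limma's unadjusted 95% intervals. Filled points passed at an adjusted p under 0.05, red for rises and blue for falls. All 3 ligands lie left of 0 in shp63 ON, whereas with Nutlin-3 only NOTCH1, NOTCH2 and JAG1 are filled.

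HES1, HES2 and HEY1 did not move as a unit. Their levels differed too, with means over the arrays of 10.11, 7.07 and 5.64. HES2 and HEY1 lay below the median of all genes, 7.30, and the part of level in their differences was not tested. HES1, the repressor most often used as a readout of Notch activity, read 10.13 and 10.25 in control, 10.37 and 10.26 with Nutlin-3, and 9.84 and 9.79 in shp63 ON. It fell 1.30-fold with the shRNA on (log2 difference −0.38, SE 0.07, limma adjusted p = 0.0075), and this missed the threshold without control replicate 2 (limma adjusted p = 0.0578, between 0.00060 and 0.0642 over the alternatives). Its Nutlin-3 arrays lay at or just above the higher control array, and the difference of 0.13 did not pass (95% interval −0.05 to 0.30). Against Nutlin-3, HES1 was 1.42-fold lower in shp63 ON (−0.50, SE 0.07, adjusted p = 0.0011).

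HES2, a relative of HES1, read 6.98 and 6.94 in control, 6.88 and 6.90 with Nutlin-3, and 7.36 and 7.37 in shp63 ON. Its shp63 ON arrays stood above all others. It rose 1.32-fold there (0.40, SE 0.06, limma adjusted p = 0.0024), and 1.39-fold against Nutlin-3 (0.47, SE 0.06, adjusted p = 0.00060), opposite in sign to HES1 on the same arrays. HEY1 read 5.96 and 5.56 in control, 5.40 and 5.60 with Nutlin-3, and 5.61 and 5.70 in shp63 ON. Its control arrays differed by more than its group means did, so the interval of its difference from control ran from −0.57 to 0.04 with Nutlin-3 and from −0.42 to 0.20 in shp63 ON. Without control replicate 1 the latter difference turned to 0.09.

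The promoters of HES1 and HES2 are shown because HES1 is the textbook direct target of RBPJ and both genes moved in opposite directions with the shRNA on. Each run gives the 250 bases before the RefSeq gene start (GRCh38.p14), 5′ to 3′ on the gene's strand. HES1 lies at chr3:194135898-194136147 on the plus strand and HES2 at chr1:6419920-6420169 on the minus strand. Capitals mark matches, on either strand, to the RBPJ core TGGGAA, the class C E-box CACGNG and the N-box CACNAG, the last 2 being sites that HES and HEY proteins are known to bind.
HES1: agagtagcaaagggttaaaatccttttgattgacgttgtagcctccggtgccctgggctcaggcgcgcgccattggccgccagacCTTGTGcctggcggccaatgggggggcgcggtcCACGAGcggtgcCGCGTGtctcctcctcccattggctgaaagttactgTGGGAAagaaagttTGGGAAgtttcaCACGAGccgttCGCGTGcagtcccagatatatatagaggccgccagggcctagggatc
HES2: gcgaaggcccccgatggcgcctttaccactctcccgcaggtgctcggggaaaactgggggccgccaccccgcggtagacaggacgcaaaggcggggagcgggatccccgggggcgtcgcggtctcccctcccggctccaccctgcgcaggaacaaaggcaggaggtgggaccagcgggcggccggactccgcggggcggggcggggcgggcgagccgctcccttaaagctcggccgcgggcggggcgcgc

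The HES1 window holds 2 RBPJ cores in the same orientation, starting 84 and 70 bases before the gene start, 4 class C E-box matches and 3 N-box matches, of which 2 coincide with E-box matches. The HES2 window holds none of these letters. Of 35116 promoter windows of this length in the RefSeq table, 20.8% held the RBPJ core, 26.7% the class C E-box and 32.0% the N-box. Among the 7 Notch genes with a window in that table, HES1 was the one with an RBPJ core, and E-box matches were also found for NOTCH3 and JAG2. The half-site of the p53 family, which p63 shares, was matched in 0 of these 7 windows and in 5.57% of all windows. With a share that low, 7 windows of 250 bases say little about such sites at these genes. A match describes the letters only.

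In shp63 ON the size of a difference went with the level of the gene. Genes within 0.5 of the mean level of HES2, 7.07, had a median difference of 0.12, and those near HEY1, at 5.64, of 0.13. Near DLL1 the median was 0.01, and near NOTCH1, JAG1, JAG2 and HES1 it was −0.06 to −0.07. HES2 at 0.40 and the falling genes at −0.34 to −0.76 lay farther from 0 than these medians. The spread of all genes came closer: the upper quartile was 0.29 in the bin of HES2 (7.0 to 7.5). In the bin of NOTCH1 (8.5 to 9.0), itself at −0.34, the lower quartile was −0.27. After cyclic loess normalization, a method aimed at such trends, the same 6 genes passed, 1 higher and 5 lower. Of all genes, 2738 were higher and 2880 lower in that setting. The medians by level are of the deposited values, and the part of the trend in these calls was not tested. With Nutlin-3 the medians at the members' levels ran from −0.07 to 0.05, against 0.84 for NOTCH1. The summed intensity of the 12 squamous and basal markers was 26100 to 26300 in control, 30200 to 31400 with Nutlin-3 and 23000 to 23800 in shp63 ON. Its members did not move together. With Nutlin-3, 5 rose and 1, EPCAM, fell (9.64% and 8.89% of all genes). In shp63 ON 3 rose (KRT15, PKP1 and CDH1) and 5 fell (19.7% and 16.5% of all genes). Among the abundant markers SFN stood at 11.54 (control), 12.35 (Nutlin-3) and 10.95 (shp63 ON), and DSP at 12.22, 12.19 and 12.15. The markers that moved most were DSG3, at 9.08, 11.11 and 8.35, and S100A2, at 8.82, 10.15 and 6.69. The part of these markers in the result was not tested.

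**Figure D3:**
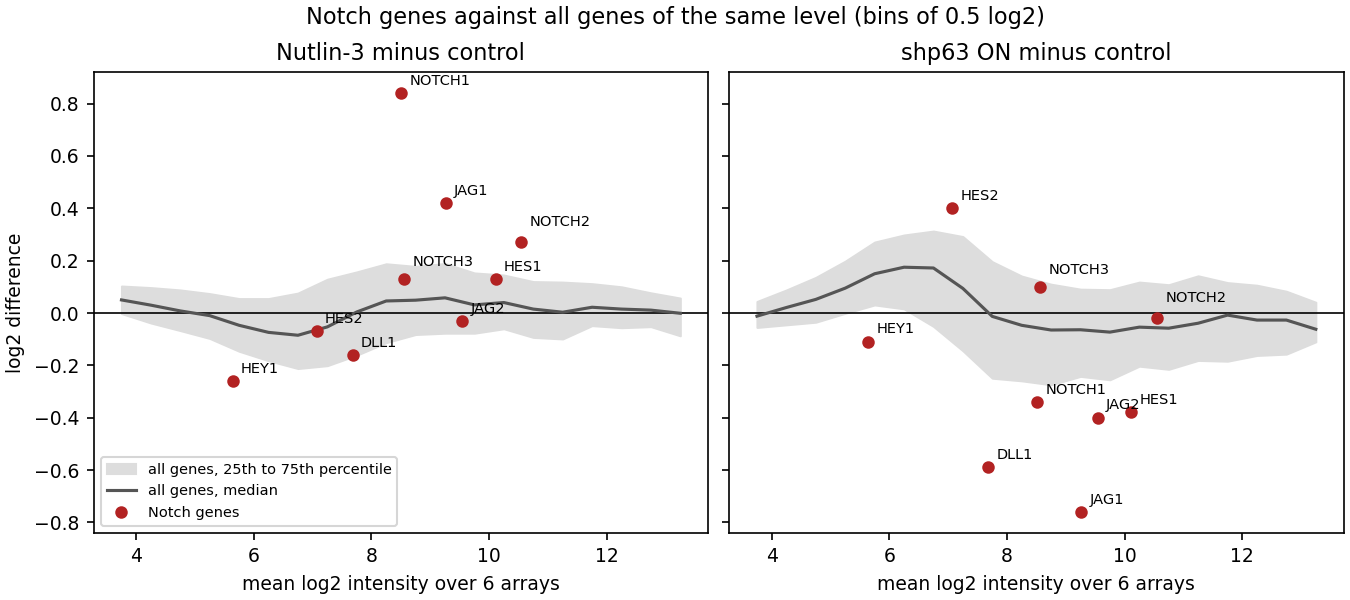
Log2 difference from control (y axis) against mean log2 intensity over the 6 arrays (x axis), a panel for each treatment. The line and band are the median and the middle quartiles of all genes in bins of 0.5, and red points are the 9 Notch genes. NOTCH1, JAG1 and NOTCH2 lie above the band with Nutlin-3, and JAG1, DLL1, JAG2, HES1 and NOTCH1 below it in shp63 ON, where HES2 lies above. HEY1, which did not pass, lies below the band in both panels.

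Other genes of the pathway came from a list of 77, of which 70 had a value. With Nutlin-3, 9 rose and 6 fell among them, with a median log2 difference of −0.01. In shp63 ON, 17 rose and 13 fell, with a median of 0.03, and between the treatments 23 were higher and 19 lower in shp63 ON. These shares lie close to those of all genes. The counts by role below stand beside the same shares of all genes. With Nutlin-3 9.64% rose and 8.89% fell, and in shp63 ON 19.7% rose and 16.5% fell. Between the treatments 27.5% were higher and 24.0% lower in shp63 ON. After median centring of every array the splits became 15 higher and 2 lower, 12 and 14, and 15 and 29. Over all genes the same centring gave 2609 and 1062, 2418 and 3854, and 3314 and 6565. Quantile normalization gave 1705 and 1448, 3535 and 2573, and 4868 and 3818 over all genes. Cyclic loess normalization gave 1736 and 1551, 2738 and 2880, and 4177 and 4276. Counts by role after centring or either normalization stand beside these counts of all genes. Leaving out a control array lowered the count of 15 to 9 (control replicate 1) or 8 (control replicate 2), and the shp63 ON count of 30 to 15 or 13. Without shp63_on replicate 1 the latter was 14.

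With Nutlin-3 the largest change among these genes was in the turnover role, and in shp63 ON it was in the glycosylation role. FBXW7, the ubiquitin ligase subunit that marks the Notch intracellular domain and other proteins for degradation, read 7.26 and 7.32 in control, 8.87 and 8.69 with Nutlin-3, and 6.76 and 7.05 in shp63 ON. It rose with Nutlin-3 (log2 difference 1.49, SE 0.11, limma adjusted p = 1e-04) and fell in shp63 ON (−0.38, SE 0.11, adjusted p = 0.0277). The fall was lost without control replicate 1 (limma adjusted p = 0.0847), control replicate 2 (0.130) or shp63_on replicate 1 (0.141). DTX4, a Deltex ubiquitin ligase, rose with Nutlin-3 (0.77, SE 0.06) and did not pass in shp63 ON (0.06, SE 0.06). In all, 2 of 13 turnover genes rose with Nutlin-3 (9.64% of all genes rose) and 0 fell by limma (8.89% fell), with 1 lower at an unadjusted p under 0.05. After median centring 4 rose, where the count over all genes went from 1774 to 2609. In shp63 ON 1 rose, AAK1, a kinase of the endocytic machinery (0.43, SE 0.07), and 1 fell.

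Of 7 genes for receptor glycosylation and furin, 2 rose and 1 fell with Nutlin-3 (9.64% and 8.89% of all genes). In shp63 ON 1 rose and 3 fell (19.7% and 16.5% of all genes). POGLUT1, which puts glucose on the EGF repeats of Notch, read 6.07 and 6.19 in control, 6.87 and 6.73 with Nutlin-3, and 5.49 and 5.34 in shp63 ON. It thus rose with Nutlin-3 (0.67, SE 0.08) and fell with the shRNA on (−0.71, SE 0.08). EOGT, which adds GlcNAc to EGF repeats, rose with Nutlin-3 (0.47, SE 0.06) and stood at −0.10 in shp63 ON without passing. POFUT1, the fucosyltransferase that ligand binding needs, fell in shp63 ON (−0.46, SE 0.06). LFNG, a Fringe enzyme that extends this fucose, fell with Nutlin-3 (−0.58, SE 0.09) and in shp63 ON (−0.36, SE 0.09), the latter not passing without control replicate 2 (limma adjusted p = 0.130) or shp63_on replicate 1 (0.108).

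In the nucleus RBPJ read 8.82 and 8.82 in control, 8.75 and 8.79 with Nutlin-3, and 8.83 and 8.85 in shp63 ON, and passed in no comparison. Of 8 genes of the nuclear complex, 1 rose with Nutlin-3, the acetyltransferase gene KAT2B (0.72, SE 0.09), and 0 fell by limma, with 1 lower at an unadjusted p under 0.05. After quantile or cyclic loess normalization 1 fell as well. In shp63 ON 2 fell and 0 rose, with 1 higher at an unadjusted p under 0.05, and after either normalization 1 rose and 1 fell. The related acetyltransferase KAT2A fell most (−0.58, SE 0.07), followed by SNW1, whose call was lost without any 1 control or shp63 ON array (limma adjusted p from 0.0824 to 0.143) and after quantile (0.0683) or cyclic loess (0.0514) normalization. Among 10 corepressor genes 1 rose and 1 fell with Nutlin-3, both of the Groucho family: TLE4 rose (0.73, SE 0.07) and TLE1 fell (−0.35, SE 0.09). The TLE1 call was lost after median centring (limma adjusted p = 0.0576) and without control replicate 2 (0.151), nutlin replicate 1 (0.110) or nutlin replicate 2 (0.0671), and with centring 3 corepressor genes rose. In shp63 ON 3 rose and 3 fell, against 2 and 1 after quantile or cyclic loess normalization. TLE2 rose there (0.62, SE 0.08) and HDAC2, a histone deacetylase, fell (−0.33, SE 0.06), as did TLE3 (−0.28, SE 0.08), named after its values were seen. Of 7 sheddase and gamma-secretase genes, 1 rose in each comparison with control, and after quantile or cyclic loess normalization 3 rose in shp63 ON. ADAM17, a sheddase, rose with Nutlin-3 (0.32, SE 0.06), a call lost without control replicate 1 (limma adjusted p = 0.0622) or control replicate 2 (0.0716). Nicastrin, NCSTN, rose in shp63 ON (0.31, SE 0.07), a call lost without control replicate 1 (limma adjusted p = 0.0851) or shp63_on replicate 1 (0.0742).

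Among 11 HES and HEY relatives and other targets, 1 rose and 3 fell with Nutlin-3 (9.64% and 8.89% of all genes), with a median of −0.18. After median centring, quantile or cyclic loess normalization 1 rose and 1 fell. NRARP, an inhibitor that Notch itself induces, fell with Nutlin-3 (−0.26, SE 0.06), a call lost after all 3 of these and without any 1 control or Nutlin-3 array (limma adjusted p from 0.0687 to 0.156). Of the same list 5 rose and 1 fell in shp63 ON (19.7% and 16.5% of all genes), with a median of 0.23. Against Nutlin-3, 9 were higher in shp63 ON and 1 lower (27.5% and 24.0% of all genes), with a median of 0.37. HES4, for example, read 8.58 and 8.67 in control, 8.18 and 8.16 with Nutlin-3, and 9.0 and 8.85 in shp63 ON. Between the treatments it was higher in shp63 ON (0.75, SE 0.07, limma adjusted p = 0.00020), and from control it fell with Nutlin-3 (−0.45, SE 0.07). The last call was lost without control replicate 2 (limma adjusted p = 0.0501). BHLHE40, a stress-responsive repressor of circadian genes, rose with Nutlin-3 (0.27, SE 0.06), a call lost without any 1 control or Nutlin-3 array (limma adjusted p from 0.0556 to 0.134). HES3, a family member best known from the nervous system, rose in shp63 ON (0.45, SE 0.07), and BHLHE40 fell there (−0.31, SE 0.06, limma adjusted p = 0.050 without control replicate 1, 0.0562 without control replicate 2 and 0.0505 without shp63_on replicate 2). Most of these genes lay near levels where the median gene was also higher in shp63 ON. After cyclic loess normalization 2 rose and 1 fell against control, and 7 were higher and 1 lower against Nutlin-3. Of all 18404 genes, 2738 rose and 2880 fell against control in that setting, and 4177 were higher and 4276 lower against Nutlin-3.

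NOTCH4, a receptor known from endothelium, rose in shp63 ON (0.44, SE 0.09), with arrays at 7.07 and 6.82 in control and 7.41 and 7.35 in shp63 ON. Of 10 other ligand genes, 4 rose and 2 fell in shp63 ON (19.7% and 16.5% of all genes), led by the microfibril protein MFAP2 (0.51, SE 0.08). Genes near the levels of NOTCH4 and MFAP2 had median differences of 0.13 and 0.17 in shp63 ON. The summed intensity of the 10 endothelial markers was 950 to 1000 in control, 772 to 808 with Nutlin-3 and 1250 to 1310 in shp63 ON. Of these markers 5 rose in shp63 ON (19.7% of all genes) and 0 fell by limma or at an unadjusted p under 0.05. Genes near the levels of these 5 had median differences from −0.06 (CDH5) to 0.17 (ESAM). EGFL7 belongs to both lists. The summed intensity of the 7 leukocyte markers was 490 to 518, 464 to 509 and 670 to 685. Both sums are of unlogged intensities, so the brightest markers, CDH5 and TYROBP, weigh most in them. The part of these markers' shift in the result was not tested. Of 3 ligand endocytosis genes, 1 rose and 1 fell in shp63 ON. The ubiquitin ligase MIB1 fell (−0.30, SE 0.07), a call lost without control replicate 1 (limma adjusted p = 0.0759) or shp63_on replicate 1 (0.0585). The related MIB2 rose (0.22, SE 0.07, limma adjusted p = 0.0497), a call lost in 12 of 17 alternatives, among them cyclic loess normalization (limma adjusted p = 0.102) and each control, each Nutlin-3 or shp63_on replicate 1 left out (limma adjusted p from 0.0570 to 0.232).

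**Figure D4:**
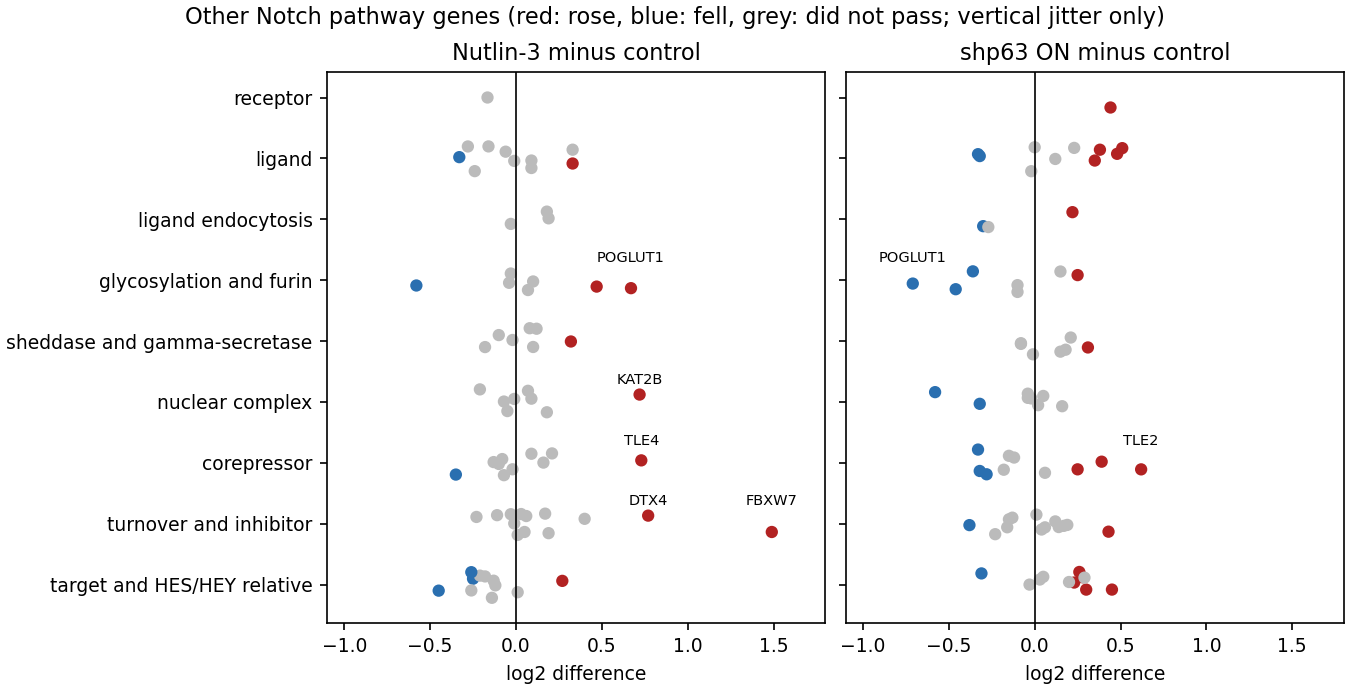
Log2 difference from control (x axis) of the 70 other Notch pathway genes by role (y axis), a panel for each treatment. Red points rose, blue fell and grey did not pass, and the height within a row has no meaning. FBXW7 at 1.49 stands farthest out with Nutlin-3, and POGLUT1 lies on opposite sides in the panels.

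The genes most like a member were sought among 16720 other protein-coding genes, by the root-mean-square log2 difference over the 6 arrays after control was set to 0, for the 4 members whose group means spanned at least 0.5. For NOTCH1 they were BTBD10 (0.030), the xylosyltransferase gene GXYLT1 (0.044) and the laminin-332 chain LAMB3 (0.044). For JAG1 they were WDR43 (0.039), RCL1 (0.056) and COBLL1 (0.060). For DLL1 they were HOMER1 (0.021), RPL22L1 (0.031) and SNRPE (0.037), and for HES1 SNUPN (0.029), IFT56 (0.030) and DHX29 (0.032). All profiles share the same 6 arrays, so these are descriptions with no test.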

How the data were processed

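RNA from 6 arrays was analysed as the log2 probe set intensities that the authors deposited. Their scale was inferred from their range, 2.94 to 14.9, and from array medians between 6.57 and 6.70. Partek, version not given, is named per the submitters' processing notes. How background, normalization and probe summary were handled is not given in the sources used here. Of 32321 probe sets, 19158 named 1 gene in the platform annotation and gave 18404 genes, with the highest mean over the arrays standing for a gene with several. Each of the 9 members had 1 such probe set. In limma 3.58.1 (R 4.3.3) each group had its own mean, with all 6 arrays in 1 fit (3 residual degrees of freedom, no covariate), and p-values were adjusted over all genes by Benjamini-Hochberg. The fit was tested on simulated data. Members, gene lists and alternatives were chosen with earlier results of these data known. All 9 members are named, with the called pathway genes of largest change per role, up to 3, of which some are given by counts alone. KYAT1, put in the pathway list in error, was left out of it after its values were computed. Alternatives were other normalizations, eBayes settings, filters, an unmoderated analysis of variance, a replicate block and each array left out.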

Additional observations from a re-analysis of the deposited data

How the results depend on the processing

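Genes called numbered 3410 with Nutlin-3, 6670 in shp63 ON and 9481 between the treatments, the order kept here. An analysis of variance without moderation gave 1236, 3003 and 6089 after adjustment, with 1 member and 5 other pathway genes for Nutlin-3 and 9 other pathway genes for shp63 ON. Without adjustment it gave 5 members and 23 other pathway genes for Nutlin-3. With 1 array left out, genes called ranged from 1405 to 2991, 3454 to 6960 and 7356 to 8918, members from 1 to 3, 4 to 6 and 7 to 7, and other pathway genes from 8 to 14, 13 to 31 and 36 to 41. Centring each array on its median changed the split of higher and lower genes from 1774 and 1636 to 2609 and 1062 with Nutlin-3, from 3634 and 3036 to 2418 and 3854 in shp63 ON, and from 5057 and 4424 to 3314 and 6565 between the treatments.

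Of 152 values of single members per comparison, 141, 146 and 149 kept their direction and side of the threshold. Signs turned in differences that did not pass: JAG2 with Nutlin-3 (0.03 after median centring, 0.01 without control replicate 1, 0.00 without nutlin replicate 2, from −0.07 without control replicate 2), NOTCH2 in shp63 ON (0.04 after quantile and 0.07 after cyclic loess normalization), HEY1 in shp63 ON (0.09 without control replicate 1, −0.31 without control replicate 2) and NOTCH3 between the treatments (0.08 after quantile and 0.04 after cyclic loess normalization, 0.01 without shp63_on replicate 1 and −0.07 without shp63_on replicate 2). The cause was not tested. The alternatives for other pathway genes were added after seeing the data. HEY1 has no value under the filter of at least 6 on 2 arrays.

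The replicate numbers did not pair the arrays: deviations from the group mean correlated at −0.062, −0.016 and 0.107 between the groups. With the replicate block 3097, 6530 and 9405 genes passed, with 3, 6 and 7 members and 15, 28 and 41 other pathway genes.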
